A study of Homo sapiens with 18 samples.

Results

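The low-dose arm of an Omni-ATAC-seq series is described here: T47D cells given 0.1 nM R5020 for 6 h, set against cells given the vehicle for the same time. Its members were taken by their labels, and they are 6 of the 18 libraries, 3 with the hormone and 3 without. T47D is an established human breast carcinoma line. Before treatment the cells of every group, controls included, were synchronised by serum starvation in phenol red-free medium, and the control cells were given DMSO. R5020, or promegestone, is a synthetic progestin; the rest of the series holds 10 nM R5020 at 6 h and all 3 conditions at 18 h. Libraries are numbered 1 to 3 within a group as in their labels. Separate cultures are not stated for them, so p-values measure only the spread between these libraries of 1 cell line, which may be technical.

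R5020 acts through the progesterone receptor, a nuclear receptor that binds DNA as a dimer once it has bound hormone. Much of its binding lies away from promoters, where it recruits coactivators and remodelling complexes, and where nucleosomes move aside the DNA becomes easier to cut. In Omni-ATAC-seq the Tn5 transposase inserts adapters into such open DNA, and the reads that fall in a region count its accessibility. The regions are given by hg19 position as the table writes them, since the annotation and promoter sequences at hand are of another build (GRCh38.p14); genes and sequences are therefore not named or printed.

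The 6 libraries held 11468476 to 36993461 counts in the 132604 regions of the table. The unit of level used is CPM, a region's counts scaled to a common library size with TMM factors and not divided by its width. Vehicle library 1 stood apart: 3.05% of regions had no read in it, against 0.158% and 0.373% in the other vehicle libraries, and the 5000 strongest regions took 41.6% of its counts, against 38.6% and 37.1%. In the 0.1 nM libraries that share was 39.1%, 36.7% and 38.3%, within the vehicle range but for library 2. The deposited counts were compared by edgeR's quasi-likelihood test, and regions with an adjusted p (Benjamini-Hochberg, over the 132304 regions tested) under 0.05 are those called.

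Treatment with 0.1 nM R5020 for 6 h changed the accessibility of 1575 regions (1.19%), mostly upward. It raised 1256 regions, 0.949% of those tested, and lowered 319, 0.241%. The raised regions were already measurable without hormone: their median level was 2.25 CPM with vehicle, beside 2.09 CPM over all tested regions, and 7.0 CPM with 0.1 nM. Of the raised regions 22.5% stood under 1 CPM with vehicle, where 28.3% of all tested regions did. Of the 1256, 1127 rose at least 2-fold, 318 at least 4-fold and 55 at least 8-fold. The lowered regions held more counts to begin with, with a median of 9.24 CPM with vehicle and 3.77 CPM with 0.1 nM, and 1 of the 319 stood under 1 CPM with vehicle. At least 2-fold losses numbered 267. The replicate CPM values of the groups did not overlap at 1253 of the raised and 318 of the lowered regions; over all tested regions 6.91% separated upward and 6.67% downward. Both counts changed when single libraries were left out, which also leaves fewer libraries in the group. Gains numbered 632, 1233 and 776 when 0.1 nM libraries 1, 2 and 3 were left out in turn. They numbered 641, 557 and 1145 for vehicle libraries 1, 2 and 3. Losses numbered 86, 140 and 151 when 0.1 nM libraries 1, 2 and 3 were left out in turn, and 70, 102 and 464 for vehicle libraries 1, 2 and 3.

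**Figure D1:**
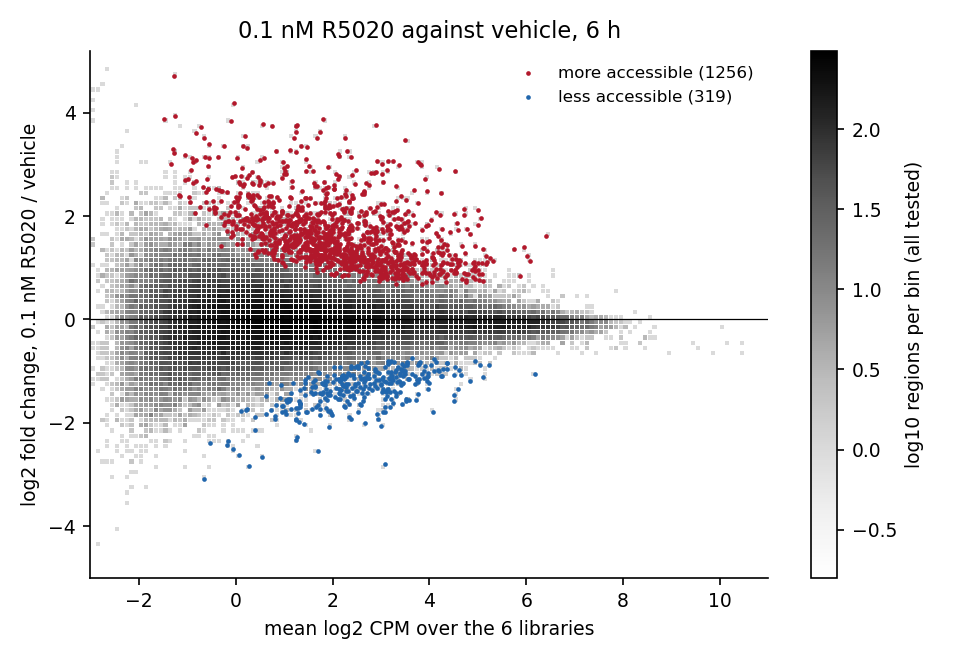
Log2 fold change of 0.1 nM R5020 over vehicle at 6 h (vertical) against the mean log2 CPM of the 6 libraries (horizontal), with grey squares shaded by the number of tested regions and called regions in colour; 1 called loss below -5, with no read in any 0.1 nM library, lies outside the plot. The 1256 raised regions spread over weak and middling levels, and the 319 lowered regions lie to the right of most of them.

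A core of the response did not depend on any 1 library. Of the 1256 gains, 464 (36.9%) were called whichever of the 6 libraries was left out, and 455 of these were also called by each of the other scalings, filters and tests tried. Their median log2 fold change was 1.94. Of the 319 losses 51 (16.0%) were called whichever library was left out, and all 51 in the other refits too. They had a median log2 fold change of -1.54 and a median vehicle level of 14.4 CPM. Among the 1256 gains 0.1 nM library 2 was the lowest of its group in 67.7%, beside 40.9% of all tested regions. In that group library 1 was the highest in 53.4%, beside 32.9%. Vehicle library 3 was the highest of its group in 49.0% of the gains, beside 39.5%. The losses followed 1 library of the vehicle group more than the gains did. In 270 of the 319 (84.6%) vehicle library 1 was the highest of its group, as it was in 35.1% of all tested regions, and in 78.4% library 3 was the lowest, beside 37.6% of all. The percentage taken by the 5000 strongest regions fell in the same order over those libraries, and its part in the losses was not tested. With that percentage as a covariate 1065 losses and 2881 gains were called.

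The 10 gains with the smallest p and no overlap between the groups were 6.56-fold to 13.6-fold. The most significant lay at chr1:110391512-110392485. There the vehicle libraries gave 1.79, 1.25 and 1.70 CPM and the 0.1 nM libraries 15.9, 13.5 and 14.7 CPM. Every treated library was several times above every vehicle library, a log2 fold change of 3.26 (SE 0.23, edgeR adjusted p = 8.58e-07). With 10 nM R5020 the same region rose less, to 6.44 ± 0.596 CPM (SD, n = 3), a log2 difference of -1.19 from the low dose (edgeR adjusted p = 0.000174). At chr8:124417554-124418344 the vehicle libraries stood at 1.16, 2.03 and 2.83 CPM and the treated ones at 29.2, 24.2 and 30.0 CPM. This region went from near the median of all tested regions to well above it, 13.6-fold, and with 10 nM it reached 24.7 ± 0.930 CPM.

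Several of these gains reached levels near 40 CPM from about 5 CPM. The region chr16:10614128-10614929 went from 5.88, 6.37 and 5.10 CPM to 38.1, 34.7 and 41.6 CPM. The region chr13:45427900-45429208 went from 5.88, 4.90 and 3.97 CPM to 40.4, 33.6 and 44.5 CPM. A rise from 3.89, 4.64 and 6.56 CPM to 40.6, 34.4 and 44.8 CPM was seen at chr10:79257902-79258924. The groups were well separated at each of the 3, and log2 fold changes were 2.71 (SE 0.21), 3.01 (SE 0.24) and 2.99 (SE 0.23). At chr11:100503639-100504229 levels were higher still, 7.25, 5.56 and 7.20 CPM with vehicle and 57.1, 43.4 and 49.3 CPM with 0.1 nM. The remaining gains of this set were at chr3:37123625-37124325 (11.4-fold), chr18:21305484-21306360 (8.38-fold), chr10:79631919-79632747 (8.27-fold) and chr1:13946319-13947033 (8.56-fold). In all 10 the call held whichever library was left out and under each other setting, and each was called again with 0.1 nM at 18 h, by 2.21 to 3.88 on the log2 scale.

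**Figure D2:**
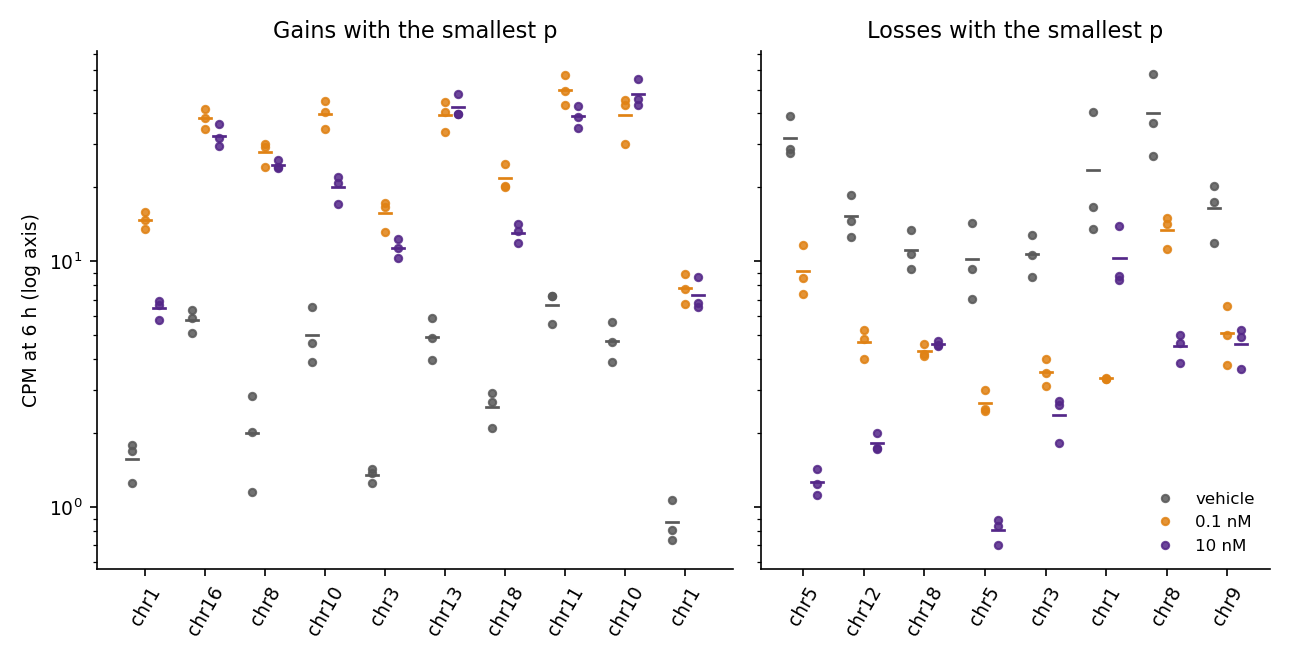
CPM at 6 h on a log axis for the 10 gains (left) and 8 losses (right) with the smallest p, in order of p from left to right and labelled by chromosome; points are the 3 libraries of each group and bars their means. The 0.1 nM points lie above all vehicle points in each gain and below them in each loss, as the choice of regions without overlap required. The 10 nM points lie lower than the 0.1 nM points in most losses.

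By absolute change in CPM the response was led by regions that already held many counts. The largest rise in CPM was at chr6:35693527-35696254, a wide region of 2727 bp. Vehicle libraries held 50.9, 48.7 and 47.8 CPM there and 0.1 nM libraries 155, 124 and 170 CPM. All treated libraries were above all vehicle libraries, which was a condition for naming a region. The rise was 3.05-fold (edgeR adjusted p = 0.000271), and 10 nM gave 133 ± 18.7 CPM. At chr4:6634282-6635567 the level rose 2.63-fold, from 45.7, 37.5 and 31.3 CPM to 103, 96.2 and 102 CPM. At chr14:95805655-95807231 it rose 2.19-fold, from 45.5 ± 3.56 CPM to 99.5 ± 10.3 CPM, and at chr5:14588873-14589698 it rose 7.29-fold, from 8.56 ± 0.625 CPM to 62.4 ± 7.68 CPM. The doses did not differ by the test at these 4 regions. The log2 difference of 10 nM from 0.1 nM was -0.17 on chromosome 6 (95% interval -0.61 to 0.26), -0.24 on chromosome 4 (-0.66 to 0.18), -0.28 on chromosome 14 (-0.70 to 0.15) and -0.22 on chromosome 5 (-0.69 to 0.26). Each interval includes 0 and bounds the difference to less than 2-fold. The last region of this set, chr11:34661235-34662375, went the other way with 10 nM and is described with the dose below.

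At chr5:117345299-117346389, the loss with the smallest p, vehicle libraries held 39.0, 27.7 and 28.7 CPM and 0.1 nM libraries 7.36, 8.53 and 11.6 CPM. The groups did not overlap, a condition for naming a loss, and the log2 fold change was -1.79 (SE 0.22, edgeR adjusted p = 0.00011). With 10 nM only 1.27 ± 0.156 CPM was left. A further loss on that chromosome, chr5:117474811-117475813, fell from 14.4, 9.28 and 7.04 CPM to 3.01, 2.51 and 2.46 CPM, and with 10 nM to 0.812 ± 0.0978 CPM. The region chr12:47639060-47639989 likewise fell by 1.70 with 0.1 nM, from 18.6, 14.5 and 12.6 CPM to 4.02, 4.83 and 5.24 CPM, and was lower again with 10 nM by 1.36 (edgeR adjusted p = 0.000307).

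At some losses the doses did not differ by the test. At chr18:60924433-60925100 the vehicle libraries held 13.4, 10.8 and 9.31 CPM, the 0.1 nM libraries 4.19, 4.12 and 4.62 CPM and the 10 nM libraries 4.54, 4.76 and 4.57 CPM. Both treated groups lay below every vehicle library and overlapped each other, with a log2 difference of 0.10 between the doses (95% interval -0.31 to 0.51). At chr9:5268267-5269699 the groups stood at 16.5 ± 4.25, 5.12 ± 1.39 and 4.62 ± 0.843 CPM in the same order. The named loss with the highest vehicle level was chr20:52480655-52483422, at 134, 103 and 83.0 CPM with vehicle and 50.5, 48.1 and 54.3 CPM with 0.1 nM. Its fall was 2.09-fold. With 10 nM it was lower again, at 27.8 ± 0.779 CPM (edgeR adjusted p = 0.00338 for the doses). The low-dose loss was no longer called when 0.1 nM library 1, 0.1 nM library 2 or vehicle library 1 was left out (edgeR adjusted p = 0.0557, 0.0525 and 0.0603). The loss at chr6:72074575-72075941, from 51.7 ± 16.3 CPM to 23.9 ± 1.59 CPM, passed narrowly (edgeR adjusted p = 0.0471) and missed the threshold in 9 of the 15 refits, with an edgeR adjusted p of 0.317 when vehicle library 1 was left out. In each of the 8 losses with the smallest p, vehicle library 1 was the highest of its group. The vehicle libraries were far apart at chr1:191122047-191123063, with 40.5, 16.7 and 13.5 CPM in the vehicle libraries and 3.37, 3.34 and 3.34 CPM in the 0.1 nM libraries. That region was called whichever library was left out, and it was the loss of this set that 10 nM lowered less, to 10.4 ± 3.12 CPM (edgeR adjusted p = 0.00754 for the doses).

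Raised and lowered regions differed in width and in starting level. The median width was 562 bp for gains and 803 bp for losses, against 387 bp for all tested regions. With the tested regions split by width into 5 classes of equal size, gains made up 0.204% of the narrowest regions (138 to 218 bp), 0.419%, 1.04%, 1.70% and 1.38% of the widest (720 to 4039 bp), beside 0.949% overall. The share of losses went from 0.0151% of the narrowest class to 0.737% of the widest. In 5 classes by the vehicle level at 18 h, measured in libraries outside this comparison, gains were 0.608%, 0.820%, 1.26%, 1.32% and 0.744% from weakest to strongest. Losses were 0.00756%, 0.0189%, 0.0983%, 0.476% and 0.605%. Wider and stronger regions hold more counts, which makes an equal fold change easier to call, so these shares do not compare responses of equal size.

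Gains were found on every chromosome except Y, where none of 185 tested regions was called. Chromosomes 21 and 13 had the highest shares, with 28 of 2051 regions (1.37%) and 31 of 2377 (1.3%). Chromosome 19, gene-dense, had the lowest share apart from Y, 19 of 3865 (0.492%), followed by chromosome 8 with 49 of 8581 (0.571%). With 0.1 nM at 18 h, in other libraries, the shares were 1.06% on chromosome 19, 1.25% on chromosome 8, 1.85% on chromosome 21 and 2.31% on chromosome 13, where 1.74% of all tested regions were raised. The share of losses, 0.241% over all tested regions, also differed between chromosomes. Chromosome 3 had 42 of 9874 (0.425%) and chromosome 6 had 28 of 6705 (0.418%), while chromosomes 19 and 22 had 1 each, of 3865 and of 2347.

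Regions that gained accessibility lay near one another. Of the gains, 31.1% had another gain within 100 kb and 10.0% within 10 kb, measured between centres; over all tested regions 11.7% had a gain within 100 kb and 1.46% within 10 kb. Losses had another loss within 100 kb in 19.1%, beside 2.01% of all tested regions. The median gap to the nearest tested region was 4.32 kb for gains, 7.78 kb for losses and 5.47 kb for all tested regions. These shares were not adjusted for that spacing. No gain had a loss within 10 kb, beside 0.229% of all tested regions, and 17 of 1256 (1.35%) had one within 100 kb, beside 2.01%. Of the losses, 20 of 319 (6.27%) had a gain within 100 kb, beside 11.7% of all tested regions. Within 500 kb 22.9% of the losses had a gain, beside 40.3%. These shares too were not adjusted for the spacing. Uncalled regions beside a gain leaned the same way. Within 5 kb of a gain, 760 uncalled regions had a median log2 fold change of 0.20, and 68.3% of them were above 0, whereas all 130729 uncalled regions had a median of -0.04 and 45.1% above 0. From 5 to 20 kb the median was 0.08, from 20 to 100 kb 0.01 and beyond 500 kb -0.06. Read at 18 h the same 760 regions had a median of 0.21 with 0.1 nM, against -0.01 for all uncalled regions. The 18 h libraries entered the 6 h calls through an estimate of the spread common to all libraries, not through the fold changes. Around losses the 125 uncalled regions within 5 kb had medians of -0.38 at 6 h and -0.24 at 18 h.

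Chained wherever neighbouring gains lay at most 100 kb apart, 129 gains (10.3%) formed 37 domains of at least 3, on 19 chromosomes. Leaving out 0.1 nM library 1 gave 14 domains, 0.1 nM library 3 gave 15, vehicle library 1 gave 15 and vehicle library 2 gave 7. The domain with the most gains was on chromosome 7, chr7:99547366-99583456, where each of the 8 tested regions rose. Of the 8, 6 or 7 were still called whichever library was left out. Its first region, chr7:99547366-99547996, stood at 1.37, 1.29 and 2.10 CPM with vehicle and 10.4, 7.69 and 14.7 CPM with 0.1 nM. This was 7.0-fold (edgeR adjusted p = 1.54e-05), and 10 nM gave 4.09 ± 0.379 CPM, a log2 difference of -1.42 from the low dose (edgeR adjusted p = 0.000467). The next region, chr7:99551207-99551702, rose by 2.29 (SE 0.30), from 1.16, 2.95 and 2.75 CPM to 11.8, 8.77 and 14.4 CPM. The other 6 rose by 1.01 to 1.58. At 18 h, 7 of the 8 were called with 0.1 nM. The exception was chr7:99568605-99569181, at 1.11 (SE 0.26) at 6 h and 0.23 at 18 h.

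**Figure D3:**
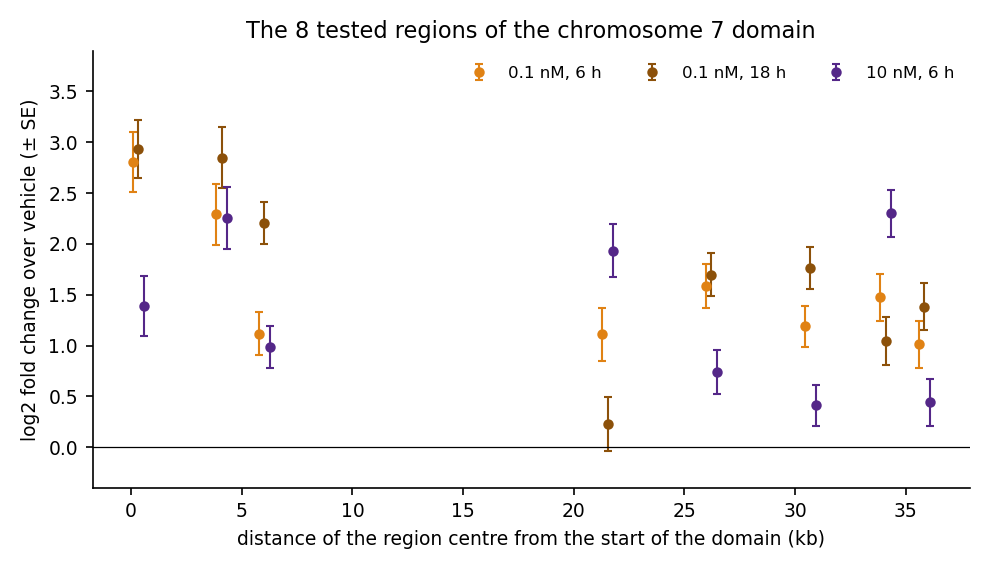
Log2 fold change over vehicle (vertical, with SE bars) of the 8 tested regions of the chromosome 7 domain, by distance in kb of the region centre from the start of the domain (horizontal), for 0.1 nM at 6 h, 0.1 nM at 18 h and 10 nM at 6 h. The 0.1 nM values at 6 h lie between 1.01 and 2.81, and 10 nM lies above 0.1 nM at some regions and below it at others.

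A further 4 domains held 5 gains each. On chromosome 11, chr11:114033411-114067491 held 5 gains among 7 tested regions, led by chr11:114049528-114050627. That region went from 2.00, 2.39 and 6.48 CPM to 44.3, 33.3 and 42.3 CPM, 11.1-fold (edgeR adjusted p = 5.46e-06), with vehicle library 3 above the others of its group. In the same domain, chr11:114034710-114034942 rose from 0.315, 0.847 and 0.971 CPM to 4.46, 4.83 and 6.6 CPM. The last gain of the domain, chr11:114066879-114067491, rose by 0.88 with 0.1 nM and stood at 20.5 CPM both with vehicle and with 10 nM. Leaving out vehicle library 2 left 2 of these 5 gains called.

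The chromosome 10 domain, chr10:79592070-79633783, held 5 gains among 12 tested regions. The strongest pair lay side by side. At chr10:79629662-79630219 the level went from 1.37, 3.83 and 3.40 CPM to 26.2, 19.6 and 26.5 CPM, and at chr10:79631919-79632747 from 3.89, 4.71 and 5.67 CPM to 45.5, 29.9 and 43.1 CPM. In the same span, chr10:79615268-79615838 had 1.84 CPM with vehicle and 2.71 CPM with 0.1 nM (edgeR adjusted p = 0.712), and 14.6 CPM with 10 nM, a rise of 3.02 on the log2 scale at the higher dose. A domain could thus hold regions called with both doses beside one called with 10 nM and not with 0.1 nM. The chromosome 2 domain, chr2:11648303-11711662, held 5 gains among 14. Its lead region, chr2:11664412-11664932, went from 0.840, 0.921 and 0.405 CPM to 3.57, 3.34 and 3.34 CPM, and with 10 nM to 9.25 ± 0.770 CPM, higher than with 0.1 nM by 1.43 (edgeR adjusted p = 0.000279). The chromosome 1 domain, chr1:182112410-182380219, was the longest of these at 268 kb, with 5 gains among 40 tested regions. In this domain 18 of the 40 were called higher with 10 nM at 6 h, against the same vehicle libraries, beside 16.7% of all tested regions. Its lead region, chr1:182259105-182259708, rose by 1.75 with 0.1 nM, with an edgeR adjusted p of 0.00405 that became 0.0511 when vehicle library 2 was left out. A domain of 4 gains among 6 tested regions lay on chromosome 8, chr8:134338783-134372911, led by chr8:134338783-134339854 (6.51, 4.79 and 7.20 CPM with vehicle, 24.0, 15.2 and 28.6 CPM with 0.1 nM).

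Losses formed 6 domains with 19 regions. The one with the most was chr14:44118659-44248709, with 4 losses among 9 tested regions. There chr14:44142157-44142810 fell from 20.4, 14.4 and 13.0 CPM to 4.46, 3.76 and 5.46 CPM. The largest fold, 6.14, was at the weaker chr14:44204972-44205537, which fell from 2.10, 3.46 and 1.54 CPM to 0.295, 0.358 and 0.513 CPM and was not called when vehicle library 2 was left out (edgeR adjusted p = 0.054). At chr4:115228039-115248089 each of the 3 tested regions fell, the first of them from 3.89, 3.5 and 1.86 CPM to 0.620, 0.239 and 0.367 CPM. Another, chr3:133156555-133176164, held 3 losses among 5, of which chr3:133171538-133172452 fell from 44.4 ± 12.1 CPM to 19.4 ± 4.90 CPM. None of the 3 losses on chromosome 3 was called when library 1 or 2 of either group was left out, and none of the 3 on chromosome 4 when vehicle library 2 was.

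The 18 h libraries gave a further reading of the low dose. Its fold changes share no library with those at 6 h. The calls at both times rest on 1 estimate of the spread from all 18 libraries, so the shares of calls are not fully independent. At 18 h 0.1 nM raised 2307 regions (1.74%) and lowered 923 (0.698%). Of the 2307, 887 (38.4%) were also called higher at 6 h, beside 0.949% of all tested regions, and 98.3% had a log2 fold change above 0 at 6 h, beside 45.5% of all. Of the 923, 231 (25%) were called lower at 6 h, beside 0.241%. The levels of these lists can be followed library by library at 6 h as the median log2 ratio to the vehicle mean. For the 2307 it was 1.03, 0.83 and 0.98 in the 0.1 nM libraries and -0.07, 0.01 and 0.10 in the vehicle libraries. For the 923 it was -0.78, -0.96 and -0.74, and 0.26, 0.03 and -0.28 in the vehicle libraries. In neither list did the groups overlap. The share of the 2307 called at 6 h was 25% when 0.1 nM library 1 was left out, 23% for vehicle library 1 and 22% for vehicle library 2. The share of the 923 was 9.67%, 11.8% and 15.3% when 0.1 nM libraries 1, 2 and 3 were left out in turn, 6.95% for vehicle library 1 and 11.4% for vehicle library 2.

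The lists set by the high dose behaved otherwise in the same 6 libraries. The 16989 regions raised by 10 nM at 18 h (12.8% of those tested) had medians of 0.25, 0.42 and 0.24 in the 0.1 nM libraries and -0.17, -0.03 and 0.26 in the vehicle libraries, so vehicle library 3 lay above 2 of the 3 treated libraries. Of these regions 982 (5.78%) were called higher with 0.1 nM at 6 h, beside 0.949% of all tested regions, and 66.7% had a log2 fold change above 0, beside 45.5%. The 10002 lowered by 10 nM at 18 h (7.56%) had medians of -0.23, -0.42 and -0.21 in the 0.1 nM libraries against 0.18, 0.04 and -0.21 in the vehicle libraries, and 301 (3.01%) were called lower, beside 0.241% of all. Of the 10002, 18.9% were above 0. By these shares the lists stood apart from all tested regions in the direction of the high dose. By their medians the low-dose and vehicle libraries overlapped for the raised list and lay close together for the lowered list, where vehicle library 3 was next to 0.1 nM libraries 1 and 3.

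**Figure D4:**
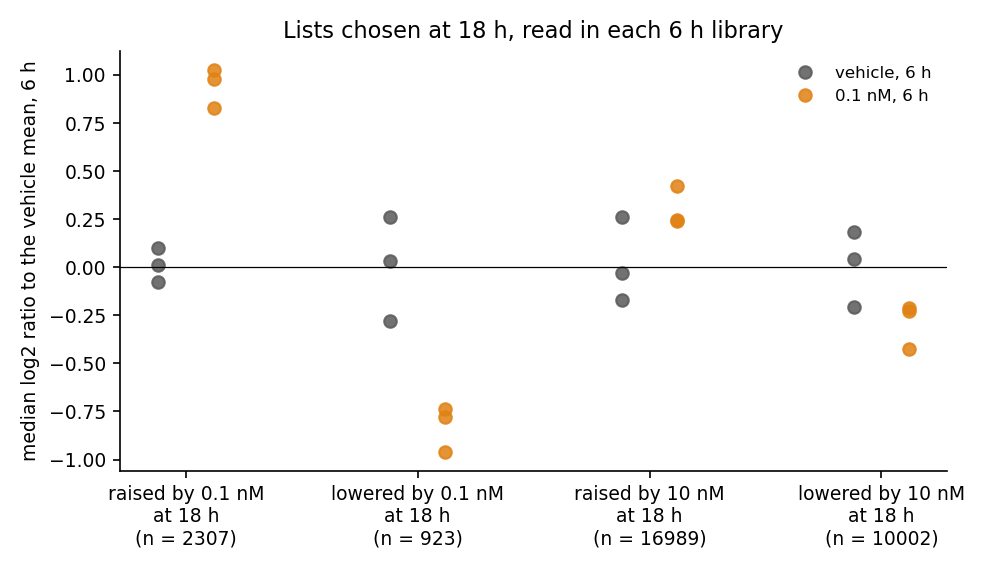
Median log2 ratio to the vehicle mean at 6 h (vertical) of 4 lists of regions called at 18 h (horizontal, with their sizes), 1 point for each 6 h library. Vehicle and 0.1 nM libraries are apart for the lists called with 0.1 nM and close together or overlapping for the lists called with 10 nM.

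In the other direction, of the 1256 regions raised by 0.1 nM at 6 h, 887 (70.6%) were called higher and 1248 (99.4%) were above 0 with 0.1 nM at 18 h, where 1.74% of all tested regions were called higher. The median log2 fold change was 1.56 at 6 h, where the list was chosen, and 1.34 at 18 h. Of the 319 losses 231 (72.4%) were called lower at 18 h, beside 0.698% of all tested regions, and their medians were -1.27 and -1.38. Among the 464 gains that were called whichever library was left out, 423 (91.2%) were called higher at 18 h, beside 1.74%. Among the 51 such losses 48 (94.1%) were called lower, beside 0.698%. These smaller lists had larger median changes at 6 h, 1.94 and -1.54, than the full lists, and the part of this in the shares was not tested. The test of the difference between the times called 0 regions with edgeR, and 3352 regions (2.53%) had an unadjusted p under 0.05, among them 145 of the 1256 gains and 29 of the 319 losses, which the 6 h libraries of the same test had chosen. Some regions were called at 6 h without being called at 18 h, such as chr8:134338783-134339854, with log2 fold changes of 1.89 and 0.95 (edgeR adjusted p = 0.000811 and 0.0881). A call at 1 time and not at the other does not show that the response changed.

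The higher dose at 6 h shares the vehicle libraries with this comparison, so its values are set beside those of the low dose without reading their likeness as evidence. With 10 nM 22119 regions (16.7%) were raised and 11143 (8.42%) lowered. Among the low-dose gains 1082 were called higher with 10 nM and 174 were not. Compared directly, 370 (29.5%) of the 1256 were higher with 10 nM than with 0.1 nM, 174 (13.9%) were lower, and 712 did not pass the test; over all regions 15.1% were higher and 5.25% lower. This comparison shares the 0.1 nM libraries that chose the gains. The 370 had median levels of 1.93, 5.79 and 16.0 CPM with vehicle, 0.1 nM and 10 nM, and in the 18 h libraries 2.24, 6.15 and 13.2 CPM. The 174 lower with 10 nM had 3.05, 9.61 and 4.33 CPM at 6 h and 3.25, 9.47 and 4.56 CPM at 18 h. In both lists the order of the 3 conditions was thus the same in the 18 h libraries. Those libraries entered the choice through the common estimate of the spread, not through the fold changes at 6 h. Of the losses 176 (55.2%) were lower still with 10 nM and 14 were higher.

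Gains much larger at the higher dose included chr13:51898033-51899037, at 2.10, 1.73 and 2.43 CPM with vehicle, 4.90, 6.08 and 5.39 CPM with 0.1 nM and 32.4, 33.6 and 41.6 CPM with 10 nM. The first step was 2.65-fold and the log2 difference between the doses was 2.72 (edgeR adjusted p = 1.27e-07). A like pattern was seen at chr16:58157998-58158754, with 2.01 ± 0.881, 5.63 ± 1.5 and 45.1 ± 1.64 CPM, and at chr1:12535604-12536387, with 3.01 ± 0.185, 5.61 ± 0.617 and 26.4 ± 2.17 CPM. The low-dose call was not firm at these last 2. With vehicle library 2 left out the edgeR adjusted p was 0.05, just over the threshold, on chromosome 16 and 0.127 on chromosome 1. In a fit of the 6 compared libraries alone it was 0.0714 and 0.088. On chromosome 1 it was also 0.118 with 0.1 nM library 1 left out and 0.0563 with vehicle library 1 left out.

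A small group of regions was raised by 0.1 nM and lowered by 10 nM at 6 h. There were 9 of them, 0.717% of the 1256 gains, where 8.42% of all tested regions were called lower with 10 nM. Regions outside the naming rule are named here after their values were seen. The one with the highest vehicle level was chr11:34661235-34662375. It had 41.4, 42.2 and 43.6 CPM for vehicle, 99.2, 82.9 and 114 CPM for 0.1 nM and 27.1, 24.8 and 32.4 CPM for 10 nM. No library of any group overlapped those of another, and the doses differed by -1.81 (95% interval -2.24 to -1.39, edgeR adjusted p = 2.97e-06). At 18 h 0.1 nM again raised it, from 38.2 ± 3.37 CPM to 88.3 ± 13.0 CPM, while 10 nM gave 39.8 CPM, a log2 fold change of 0.06 over vehicle (edgeR adjusted p = 0.858). At chr8:40203395-40204601 the order held at both times, with 11.6 ± 1.68, 21.7 ± 0.828 and 3.88 ± 0.454 CPM at 6 h and 12, 20.6 and 5.94 CPM at 18 h. Its low-dose call at 6 h was lost when 0.1 nM library 1, vehicle library 2 or vehicle library 3 was left out (edgeR adjusted p = 0.0765, 0.0833 and 0.0669).

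The others lay at chr2:233488578-233489678, chr6:42013219-42014027, chr6:49644329-49645750, chr7:142823286-142823919, chr8:124425332-124425618, chr10:63872075-63872484 and chr10:97233947-97234836. Their log2 fold changes with 0.1 nM at 6 h ran from 0.85 to 1.74. The edgeR adjusted p of these rises ran from 0.000144 to 0.0473, and chr6:42013219-42014027 (0.0473), chr6:49644329-49645750 (0.0365) and chr10:97233947-97234836 (0.0365) passed narrowly. The call on chromosome 2 was lost when 0.1 nM library 2 or 3 or any vehicle library was left out, with an edgeR adjusted p of up to 0.152. At chr8:124425332-124425618, near the 13.6-fold gain on that chromosome, vehicle libraries held 4.2, 4.6 and 5.59 CPM, 0.1 nM libraries 15.7, 12.4 and 19.8 CPM and 10 nM libraries 3.47, 2.31 and 3.51 CPM. Both of these regions rose with the low dose, the second 3.33-fold, and at 6 h 10 nM raised the first and lowered the second. That lowering passed narrowly (edgeR adjusted p = 0.048), and it was not called at 18 h (edgeR adjusted p = 0.255). Over the 9 regions the edgeR adjusted p of the 10 nM lowering at 6 h ran from 5.14e-06 to 0.048. At 18 h 7 of the 9 were called higher with 0.1 nM, beside 1.74% of all tested regions, and 3 were called lower with 10 nM, beside 7.56%. Gains with 0.1 nM and little change with 10 nM were also seen at chrX:10018483-10018951, with 2.80 ± 0.487, 9.72 ± 2.02 and 2.43 ± 0.335 CPM, and at chr3:132907703-132908290, with 2.12 ± 0.455, 7.54 ± 1.18 and 2.46 ± 0.234 CPM for vehicle, 0.1 nM and 10 nM.

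In the 10 nM libraries at 18 h most of the low-dose regions had moved the same way. The fold changes of the 2 comparisons share no library, but both sets of calls rest on the common estimate of the spread. Of the 1256 gains 982 (78.2%) were called higher, beside 12.8% of all tested regions, and 879 were at least 2-fold up; 12 were called lower. Of the 319 losses 301 (94.4%) were called lower, beside 7.56%, and 1 higher. Of the 12, 5 had also been called higher with 0.1 nM at 18 h.

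**Figure D5:**
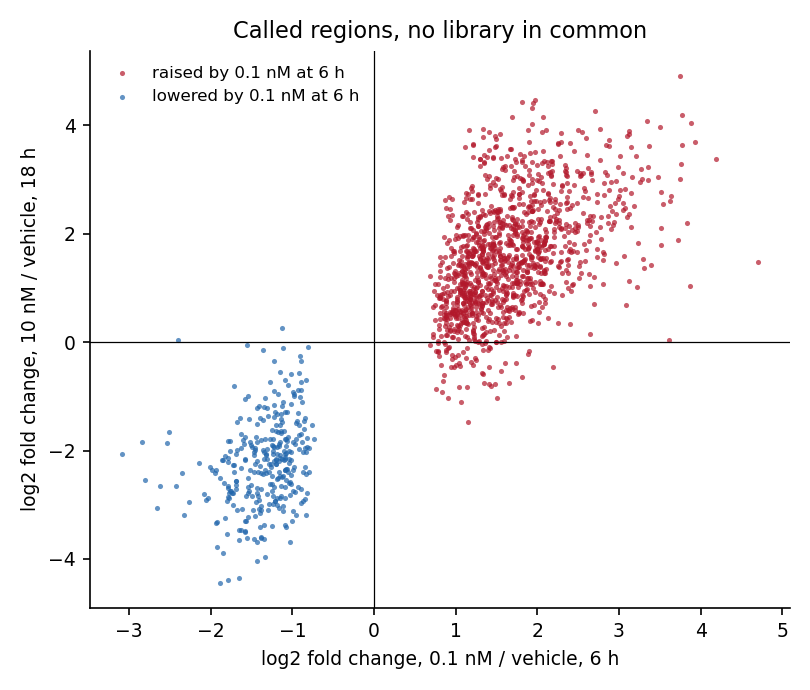
Log2 fold change of 10 nM over vehicle at 18 h (vertical) against that of 0.1 nM over vehicle at 6 h (horizontal) for the called regions, which come from libraries not shared between the axes; 1 loss below -5 is outside the plot. Nearly all losses and most gains keep their sign, and a tail of gains reaches below 0 with 10 nM.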

How the data were processed

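The authors deposited 1 table of raw read counts per region, with a column for each of 18 libraries. BWA, MACS2 and hg19 are named per the submitters' processing notes. Not given in the sources used here: their versions, read filters, any Tn5 shift, how regions were merged, and whether starts count from 0 or 1. Columns were matched to samples by title. In R 4.3.3, edgeR 4.0.16 (filterByExpr by group, TMM, glmQLFit and glmQLFTest) fitted 1 model to the 18 libraries, whose 6 group means left 12 residual degrees of freedom; 300 regions with low counts were left out. Adjusted p-values are Benjamini-Hochberg over 132304 regions, and the SE is the log2 fold change divided by the square root of F. Log2 CPM used a prior count of 2. Replicate pairs differed by more than sampling noise (chi-square per degree of freedom 5.24 to 15.8). The steps were tested on simulated counts.

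Named regions were taken among called regions without overlap between groups. They were the 10 gains and 8 losses with the smallest p, and the 5 and 3 with the largest change in CPM. Added were the lead of the 6 gain and 3 loss domains with the most calls, and 3 gains not called higher with 10 nM. The last were 3 gains with the smallest p of the dose difference each way. Regions and rules were chosen with earlier results of these data known. DESeq2 1.42.0, limma 3.58.1, other scalings and filters, a replicate block and leaving out each library were tried as alternatives.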

Additional observations from a re-analysis of the deposited data

How the results depend on the processing

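The 41 named regions kept their direction in all 15 refits; 31 were called in each, and 35 of the 615 values missed the threshold. Leaving out 1 library gave 557 to 1233 gains, 70 to 464 losses, 7 to 35 domains of gains, and 22% to 35.8% and 6.95% to 31.9% of the regions raised and lowered at 18 h called alike at 6 h (1256, 319, 37, 38.4% and 25% with all libraries). A fit of the 6 compared libraries gave 837 gains, 206 losses and 21 domains. Adding, as a covariate, how much of each library the 5000 strongest regions took gave 2881, 1065 and 173, with shares of 42.4% and 32.5%. DESeq2's Wald test gave 644 losses, 70 domains and a share of losses of 32.8%; limma voom gave shares of 32.3% and 32.7%, and 68.2% of its calls were gains, against 79.7%. DESeq2's size factors gave 34.8% for gains, and loess offsets 64 domains and 31.8% for losses. An adjusted p under 0.01 left 632 gains and 91 losses, with shares of 42.2% and 21.2%, and a gap of 200 kb gave 61 domains. The cause of these differences was not tested.

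Same-numbered libraries of the 2 groups deviated with r = 0.46, 0.0012 and -0.10 across regions, and replicate 2 of the 0.1 nM group correlated best with vehicle replicate 3 (r = 0.47), so the numbers were not taken as pairs. With the replicate number as a block 1925 gains, 747 losses and 94 domains were called, with a share of 29.5% for losses. Vehicle libraries of 11468476 and 11849062 counts limit weak regions.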

Other observations

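Over all tested regions the median log2 fold change of 0.1 nM over vehicle at 6 h was -0.04, and it differed between chromosomes, from -0.11 on chromosome 8 to 0.09 on chromosome 22 (chromosome Y, with 185 regions, stood at -0.20). Calls by chromosome were not adjusted for these medians.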
